A study of Mus musculus with 12 samples.

Results

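The genes described here encode the subunits of mitochondrial oxidative phosphorylation: respiratory complexes I to IV, cytochrome c, and the ATP synthase (complex V). They were chosen by symbol from a microarray series on MIN6 cells, a mouse insulinoma line that models the insulin-secreting beta cell. A gene was a member if its symbol begins with Ndufa, Ndufb, Ndufc, Ndufs or Ndufv and a number, with Uqcr, with Atp5 or with Cox4 to Cox8, or is 1 of the 4 succinate dehydrogenase genes (Sdha to Sdhd), Cycs or Cyc1. Pseudogenes were left out, and a gene with several probe sets was represented by the one with the highest mean over all arrays. The rule found 109 probe sets of 83 genes, among 19938 genes on the arrays: 33 of complex I, 4 of complex II, 9 of complex III, 1 cytochrome c, 19 of complex IV and 17 of complex V. All 83 were tested, since no filter on dim signals was used.

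The series asked how the MIN6 transcriptome differs under siRNA to Hes3, a Hes family repressor of transcription, in 2 culture conditions. Cells were first kept in medium with fetal calf serum and then carried either Hes3 siRNA or scrambled control siRNA, given at 2 µM, in serum medium at 20% oxygen (the Classic Conditions, CC) or in serum-free medium at 5% oxygen (the Defined Conditions, DC). RNA was taken 12 to 24 hours after transfection. Each siRNA was hybridized to 2 arrays in CC and 4 in DC, 12 arrays in all, and the DC arrays labelled Hes3 siRNA bear the replicate numbers 1, 2, 5 and 7. Serum and oxygen changed together between CC and DC, so their effects cannot be told apart. All arrays came from a single experiment, per the labels, so the p-values measure only the spread between these samples, which may be technical. In RNA from whole cultures, fewer cells of a type and less RNA per cell cannot be told apart.

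Oxidative phosphorylation passes electrons from NADH through complex I, or from succinate through complex II, to ubiquinone, then through complex III and cytochrome c to complex IV, which reduces oxygen. Complexes I, III and IV pump protons across the inner mitochondrial membrane, and complex V uses the returning protons to make ATP. In beta cells the ATP made this way from glucose closes potassium channels and triggers insulin release. Complexes I, III, IV and V mix subunits from mitochondrial DNA with nuclear-encoded ones, and the members here are nuclear genes, many with processed pseudogenes whose transcripts a probe set could also bind.

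The target of the siRNA was checked first. Hes3 signal (log2) was 7.22 and 7.23 on the CC arrays labelled Hes3 siRNA and 7.23 and 6.82 on the scrambled CC arrays. It was 7.37, 7.36, 7.38 and 7.25 on the DC arrays labelled Hes3 siRNA and 7.10, 7.24, 7.19 and 7.22 on the scrambled DC arrays. Hes3 signal was thus not lower under the Hes3 siRNA label (difference 0.20 in CC and 0.15 in DC, adjusted p = 1.00 and 0.114 by limma). The arrays are called "labelled Hes3 siRNA" for that reason. Hes3 lies at the 29.8th percentile of signal. All genes between the 25th and 50th percentiles had a median difference of 0.04 in CC and 0.21 in DC. Whether this dim probe set can show a fall of Hes3 mRNA was not tested. Of 12 beta cell markers, all but Slc2a2 lay above the 90th percentile of signal, Slc2a2 at the 39.4th. In the DC comparison of the siRNA labels 28.9% of all 19938 genes were higher and 18.3% lower, and the direction went with signal level: among the brightest 25% of genes 40.9% were lower and 2.39% higher. Of the 83 members, 60 lie among these brightest 25%, so the counts below are set beside them as well as beside all genes.

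In DC, 22 of the 83 members were lower and 5 were higher on the arrays labelled Hes3 siRNA than on the scrambled arrays (limma, adjusted p under 0.05 over all genes). The falls reached every step of the chain but complex II: 9 of 33 complex I members, 3 of 9 in complex III, cytochrome c itself, 3 of 19 in complex IV and 6 of 17 in complex V. The 5 that rose were all complex IV members classed here as tissue-restricted isoforms. That class also holds Ndufa4l2, a paralog of Ndufa4 known as a target of hypoxia-inducible factors. The median difference over the members was -0.11 (log2), beside 0.06 over all genes and -0.15 over the brightest 25%. Of the 60 members among the brightest 25%, 20 fell, which is 33.3% beside 40.9% of all genes in that class. The median of these 60 was -0.16. The members' share of falls was thus above that of all genes and below that of genes of like signal. Single arrays moved the count: 27 members passed with all arrays, 16 without scrambled DC array 1, and 17 each without DC array 5 labelled Hes3 siRNA and without scrambled DC array 4. With array 1 and array 5 of the Hes3 siRNA label both left out, 0 passed. After quantile normalization the split was 8 higher and 11 lower with a median of -0.01, and after cyclic loess 3 higher and 10 lower with a median of -0.02.

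Between the culture conditions, the arrays labelled Hes3 siRNA gave the widest change of these genes: 43 members were lower and 3 higher in DC than in CC. For comparison, 18.8% of all genes and 44.5% of the brightest 25% were lower, and 21.2% and 9.15% were higher. Of the 60 members among the brightest 25%, 39 fell, or 65.0%, and their median difference was -0.32 beside -0.19 over the brightest 25%. The median of all members was -0.25 beside 0.09 over all genes. Centring each array on its median moved the median of all genes from 0.09 to -0.02 and gave 47 lower and 0 higher members, while quantile normalization gave 23 lower and 2 higher. The count rests in part on 1 array of a pair: without CC array 2 labelled Hes3 siRNA, 12 members were lower and 0 higher. This comparison and the previous one share the 4 DC arrays labelled Hes3 siRNA, so their values are given side by side and are not independent.

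With scrambled siRNA, by contrast, 1 member passed the test between DC and CC. Ndufv3, a small accessory subunit of the NADH-oxidizing part of complex I, was higher in DC, where 3.09% of all genes were higher and 5.45% lower (6.92% and 11.9% among the brightest 25%). Its signal was 9.16 and 9.30 in CC and 9.51, 9.55, 9.62 and 9.51 in DC, and the groups do not overlap. The difference was 0.32 ± 0.09 (log2, SE; 1.24-fold; adjusted p = 0.0334). The call was lost when any 1 of the 6 scrambled arrays was left out (0.25 to 0.39, adjusted p = 0.0536 to 0.162) and after centring (0.28, adjusted p = 0.0949). For the other complexes the smallest p belonged to Sdhc (-0.13, adjusted p = 0.416), Uqcr10 (-0.25, 0.138), Cox6a1 (0.22, 0.171) and Atp5o (-0.25, 0.215). The members' median was -0.04, and 11 had an unadjusted p under 0.05. The comparison turned with the scrambled CC array left out: without array 1, 9 members were lower and 0 higher with a median of -0.17, and without array 2, 0 passed and the median was 0.07.

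In CC the siRNA labels differed in 0 of the 83 members and in 0% of all genes by limma, with 2 members (Ndufs7 and Ndufs8) at an unadjusted p under 0.05. The members' differences were above 0 for 72 of 83, with a median of 0.10 beside 0.02 over all genes. Without scrambled CC array 1 that median was -0.03. The smallest p-values within complexes belonged to Ndufs7 (0.28 ± 0.12), Sdhc (0.14 ± 0.09), Uqcr11 (0.30 ± 0.14), Cox6a2 (0.17 ± 0.08) and Atp5d (0.21 ± 0.10), all with an adjusted p of 1.00, and Cycs differed by 0.10 ± 0.15. The siRNA difference in DC was then tested against that in CC, gene by gene. By limma 0 members and 0% of all genes passed, with 27 members at an unadjusted p under 0.05. The members' median was -0.19 beside 0.05 over all genes. That of the 60 members among the brightest 25% was -0.25, beside -0.15 over all genes of that class. The largest of these differences were in Uqcrb (-0.81, 95% confidence interval -1.24 to -0.37) and Atp5md (-0.80, -1.27 to -0.33), with adjusted p = 0.177 and 0.179. Cycs had -0.61, Cyc1 -0.49, Ndufs7 -0.48, Cox6c -0.47 and Sdha -0.18, none past the threshold. Without scrambled CC array 2, 24 members passed, all lower.

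**Figure D1:**
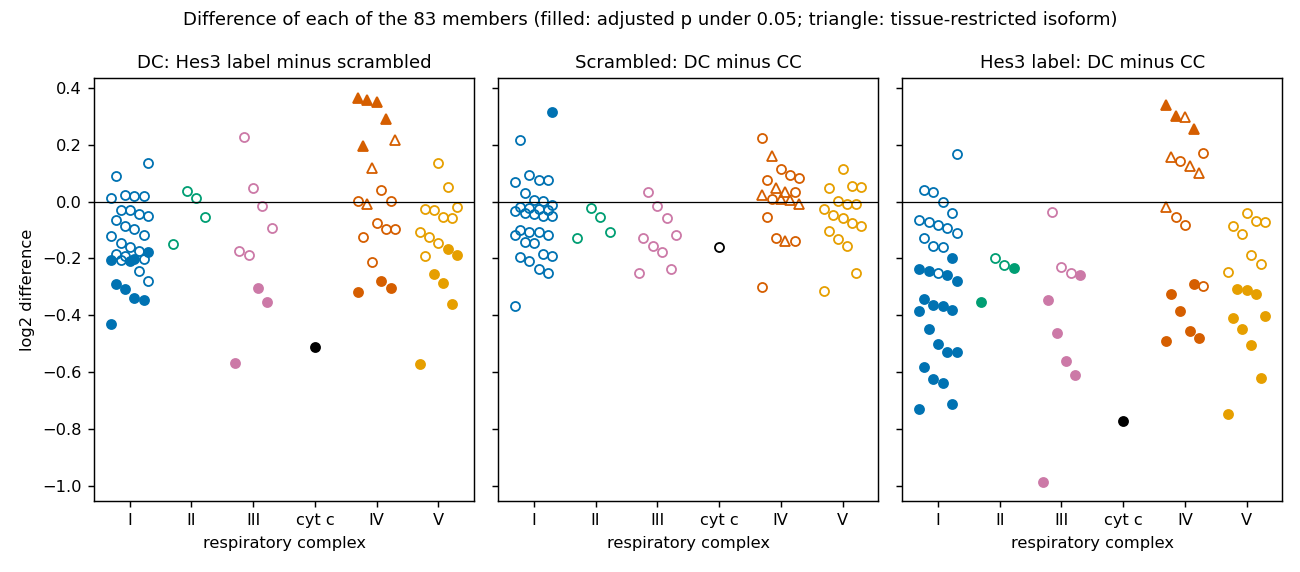
Difference of each of the 83 members (log2, vertical axis) by respiratory complex (horizontal axis) in 3 comparisons. Filled marks have an adjusted p under 0.05, and triangles are the 8 complex IV members classed as tissue-restricted isoforms. In DC, 22 members fell and 5 isoforms rose under the Hes3 siRNA label, 1 member passed between DC and CC with scrambled siRNA, and 43 fell and 3 rose between DC and CC under the Hes3 siRNA label.

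Cytochrome c, the small soluble protein that carries electrons from complex III to complex IV, had one of the largest differences. Cycs signal was 10.91, 11.11, 10.85 and 10.97 on the DC arrays labelled Hes3 siRNA (1, 2, 5 and 7) and 11.66, 11.29, 11.38 and 11.55 on the scrambled DC arrays (1 to 4). In CC it was 11.63 and 11.83 with the Hes3 siRNA label and 11.36 and 11.90 with scrambled siRNA. All 4 DC arrays labelled Hes3 siRNA lay below all other arrays. Cycs was lower by 1.42-fold in DC (-0.51 ± 0.11, adjusted p = 0.00444) and by 1.71-fold between DC and CC under the Hes3 siRNA label (-0.77 ± 0.13, adjusted p = 0.000599), beside -0.16 ± 0.13 between DC and CC with scrambled siRNA (adjusted p = 0.602). Cycs has 3 probe sets: in DC another of them differed by -0.62, and the dimmest one by 0.21, which did not pass. Between DC and CC under the Hes3 siRNA label these had -0.95 and 0.10, and the dimmest one again did not pass.

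The proximal promoter of Cycs is shown because this gene had one of the largest falls and its window holds letters of 2 motifs. These are the 250 bases before the start of the gene in RefSeq (GRCm38.p6, chr6:50566570-50566819, minus strand), with the cyclic AMP response element TGACGTCA and the short site of nuclear respiratory factor 1, GCATGCGC, in capitals.
Cycs: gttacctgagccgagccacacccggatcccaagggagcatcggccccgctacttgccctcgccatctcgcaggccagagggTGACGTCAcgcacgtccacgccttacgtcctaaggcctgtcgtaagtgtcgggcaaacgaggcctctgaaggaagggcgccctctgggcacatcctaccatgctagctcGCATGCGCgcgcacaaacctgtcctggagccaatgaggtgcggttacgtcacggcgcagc

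Complex III, which takes electrons from ubiquinol and passes them to cytochrome c, held the member with the largest fall between DC and CC under the Hes3 siRNA label. Uqcrb, a small subunit close to the ubiquinone site, had a signal of 10.53, 10.63, 10.26 and 10.67 on the DC arrays labelled Hes3 siRNA and 11.07, 11.07, 10.89 and 11.33 on the scrambled DC arrays. In CC it was 11.48 and 11.54 with the Hes3 siRNA label and 10.98 and 11.56 with scrambled siRNA. The DC arrays labelled Hes3 siRNA again lay below every other array. The difference was -0.57 ± 0.12 in DC (1.48-fold, adjusted p = 0.00439) and -0.98 ± 0.15 between DC and CC under the Hes3 siRNA label (1.98-fold, adjusted p = 0.000177). All 3 Uqcrb probe sets fell in the same direction, by -0.46 to -0.63 in DC.

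Cyc1, the cytochrome c1 subunit that hands electrons to cytochrome c, had a signal of 10.11, 10.23, 10.03 and 10.14 on the DC arrays labelled Hes3 siRNA and 10.37, 10.55, 10.45 and 10.55 on the scrambled ones. In CC it was 10.69 and 10.78 with the Hes3 siRNA label and 10.44 and 10.76 with scrambled siRNA. These groups do not overlap in DC, and the spread within each DC group was under 0.10 (SD 0.08 and 0.09, n = 4 each). Cyc1 fell by 0.35 on the log2 scale in DC (SE 0.07, adjusted p = 0.00458) and by 0.61 between DC and CC under the Hes3 siRNA label (SE 0.09, adjusted p = 0.000201). The core subunit Uqcrc2 fell by 0.30 and 0.56 in the same comparisons. In the DC to CC comparison of the Hes3 siRNA label 6 of 9 complex III members fell, among them Uqcrh, the hinge protein (-0.46 ± 0.13), Uqcrc1 (-0.34 ± 0.13) and Uqcr10 (-0.26 ± 0.10). Uqcrfs1, the Rieske iron-sulfur protein, had -0.17 ± 0.10 in DC and -0.25 ± 0.12 between conditions, and neither passed. Uqcr11 stood on the other side in DC with 0.23 ± 0.10 (adjusted p = 0.0774).

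**Figure D2:**
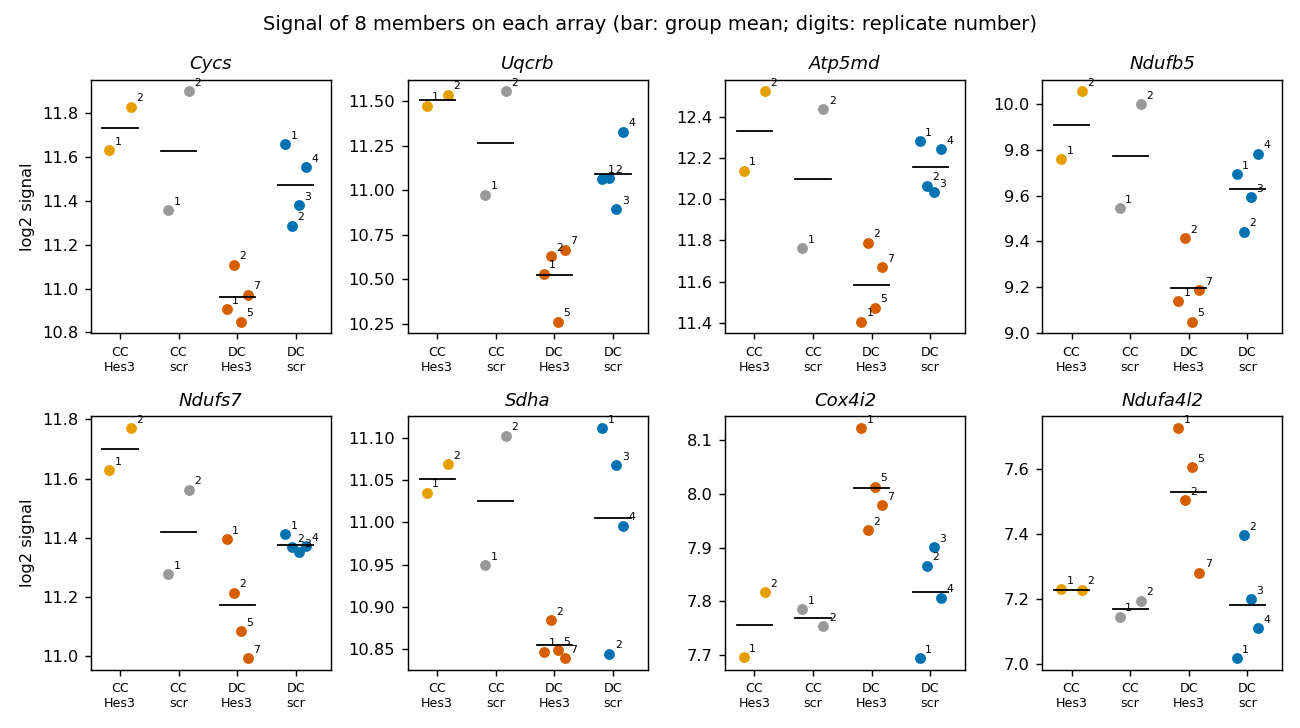
Signal (log2, vertical axis) of 8 members on each of the 12 arrays, grouped by culture condition and siRNA label, with bars at group means and digits for replicate numbers; each vertical axis has its own range and does not start at 0. In Cycs and Uqcrb the 4 DC arrays labelled Hes3 siRNA lie below the other 8 arrays, and in Cox4i2 they lie above them.

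Complex I, the NADH dehydrogenase, has core subunits that carry the flavin and iron-sulfur clusters and a larger set of accessory subunits around them. Of the 6 core members on the arrays 2 fell in DC: Ndufs1 (-0.29 ± 0.09, adjusted p = 0.021), the largest iron-sulfur subunit, and Ndufv1 (-0.20 ± 0.06, adjusted p = 0.0173), which binds NADH. Both are subunits of the module that oxidizes NADH. They are 33.3% of the core members, beside 18.3% of all genes and 40.9% of the brightest class that fell. The other 4 core members, Ndufs3, Ndufs7, Ndufs8 and Ndufv2, had differences of -0.15 to -0.20 that did not pass. Of the 6 core members 5 fell between DC and CC under the Hes3 siRNA label (83.3%, beside 18.8% of all genes and 44.5% of the brightest class). Ndufs8 and Ndufs7, iron-sulfur subunits on the path to ubiquinone, fell by 0.58 (SE 0.09, adjusted p = 0.000251) and 0.53 (SE 0.10, adjusted p = 0.00156), and Ndufs1 with -0.16 ± 0.11 did not pass.

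Ndufs8 signal was 10.85 and 11.01 on the CC arrays labelled Hes3 siRNA and 10.49, 10.31, 10.32 and 10.26 on the DC arrays with that label. With scrambled siRNA it was 10.56 and 10.84 in CC and 10.49, 10.41, 10.57 and 10.50 in DC. The groups with the Hes3 siRNA label do not overlap, while those with scrambled siRNA do. In DC the siRNA groups overlap, since array 1 labelled Hes3 siRNA lay above scrambled array 2.

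Among the 27 accessory members of complex I, 7 fell in DC (25.9%, beside 18.3% of all genes and 40.9% of the brightest class). Between DC and CC under the Hes3 siRNA label 14 of these members fell (51.9%, beside 18.8% of all genes and 44.5% of the brightest class). The largest falls in DC were in Ndufb5, a subunit of the membrane arm, with 9.14, 9.41, 9.05 and 9.19 on the arrays labelled Hes3 siRNA and 9.69, 9.44, 9.59 and 9.78 on the scrambled arrays. Array 2 of each label came close to the other group, but the groups do not overlap. The difference was -0.43 ± 0.11 (1.35-fold, adjusted p = 0.00766), and -0.71 ± 0.13 between conditions under the Hes3 siRNA label (adjusted p = 0.00105).

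Ndufa2, an accessory subunit of the NADH-oxidizing module, had 9.28, 9.19, 9.10 and 9.22 in DC with the Hes3 siRNA label and 9.50, 9.56, 9.62 and 9.50 with scrambled siRNA. Its groups were narrow (SD 0.07 and 0.05, n = 4 each) and apart, and the difference was -0.35 ± 0.09 (adjusted p = 0.00999). Ndufa9, which sits near the ubiquinone channel, fell by 0.34 in DC (SE 0.08, adjusted p = 0.00717), and Ndufs5 by 0.31 (SE 0.09, adjusted p = 0.0157). Between conditions under the Hes3 siRNA label Ndufb6, another membrane arm subunit, had the largest fall of complex I (-0.73 ± 0.19, adjusted p = 0.00882), followed by Ndufb5, Ndufa2 (-0.64 ± 0.11) and Ndufs5 (-0.62 ± 0.11). In DC Ndufb6 had -0.28 ± 0.15 and did not pass: scrambled DC array 2 read 10.02, below all 4 arrays labelled Hes3 siRNA (10.32, 10.45, 10.04 and 10.27), and the other scrambled arrays read 10.79, 10.60 and 10.78. The differences of the accessory members in DC ran from -0.43 to 0.13, the highest in Ndufs6, with none higher past the threshold.

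Complex II, succinate dehydrogenase, also works in the tricarboxylic acid cycle and pumps no protons. None of its 4 members passed in DC. The flavoprotein Sdha came nearest, with 10.85, 10.88, 10.85 and 10.84 on the arrays labelled Hes3 siRNA and 11.11, 10.84, 11.07 and 11.00 on the scrambled arrays. Scrambled array 2 lies level with the other group, and the difference was -0.15 ± 0.06 (adjusted p = 0.0653). The iron-sulfur subunit Sdhb and the membrane anchors Sdhc and Sdhd had 0.01 ± 0.08, 0.04 ± 0.06 and -0.05 ± 0.10, with 95% confidence intervals of -0.16 to 0.18, -0.10 to 0.17 and -0.26 to 0.16. Both anchors fell between DC and CC under the Hes3 siRNA label: Sdhd by 0.35 (SE 0.12, adjusted p = 0.0318) and Sdhc by 0.23 (SE 0.08, adjusted p = 0.0291). Sdha (-0.20 ± 0.08, adjusted p = 0.0575) and Sdhb (-0.22 ± 0.10, adjusted p = 0.0838) did not pass.

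Complex IV, cytochrome c oxidase, has ubiquitous nuclear subunits and isoforms known from particular tissues. Of the 11 ubiquitous members 3 fell (27.3%) and 0 rose in DC, and of the 8 isoforms 5 rose (62.5%) and 0 fell. Over all genes 18.3% fell and 28.9% rose, and among the brightest 25% the shares were 40.9% and 2.39%. All genes between the 25th and 50th percentiles of signal, where most of the isoforms lie, had a median of 0.21. No test compared the kinds. The ubiquitous members that fell were Cox7b (-0.32 ± 0.09, adjusted p = 0.012), Cox6c (-0.30 ± 0.08, adjusted p = 0.00781) and Cox7a2 (-0.28 ± 0.11, adjusted p = 0.0417). Cox6c signal was 12.23, 12.36, 12.23 and 12.33 on the arrays labelled Hes3 siRNA and 12.67, 12.45, 12.57 and 12.67 on the scrambled arrays, with no overlap. A second Cox6c probe set was nearly as bright (mean 12.42 beside 12.49). It differed by -0.13 in DC and by -0.15 between DC and CC under the Hes3 siRNA label, and passed in neither. Between DC and CC under the Hes3 siRNA label 6 of the 11 fell (54.5%, beside 18.8% of all genes and 44.5% of the brightest 25%). They were led by Ndufa4, a subunit once assigned to complex I, with 9.47 and 9.76 in CC and 9.21, 9.31, 8.81 and 9.19 in DC (-0.49 ± 0.14, adjusted p = 0.0136). Cox7b, Cox7a2 and Cox6c followed with -0.48, -0.46 and -0.38. Cox4i1, Cox6a1, Cox6b1 and Cox8a passed in neither comparison: in DC they had -0.10 ± 0.07, -0.10 ± 0.07, -0.13 ± 0.11 and 0.00 ± 0.07. Cox7a2l, which joins complexes III and IV into supercomplexes, had 0.04 ± 0.07 in DC and 0.17 ± 0.08 between conditions, and neither passed.

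Of the 8 members classed as tissue-restricted isoforms 5 rose in DC under the Hes3 siRNA label (62.5%, beside 28.9% of all genes). Cox4i2, the isoform of subunit 4 known from lung and as a hypoxia-responsive gene, read 8.12, 7.93, 8.01 and 7.98 on the arrays labelled Hes3 siRNA and 7.69, 7.87, 7.90 and 7.81 on the scrambled arrays. In CC it read 7.70 and 7.82 with the Hes3 siRNA label and 7.79 and 7.75 with scrambled siRNA. The 4 DC arrays labelled Hes3 siRNA were the highest of all 12. The difference was 0.19 ± 0.06 in DC (1.14-fold, adjusted p = 0.0236) and 0.26 ± 0.08 between conditions under that label (adjusted p = 0.0204). Between DC and CC with scrambled siRNA, where serum changed along with oxygen, it was 0.05 ± 0.08 (adjusted p = 0.828). The call for Cox4i2 in DC was lost after quantile normalization, median centring and cyclic loess, at differences of 0.13, 0.12 and 0.07, and when DC array 1 or 5 labelled Hes3 siRNA or scrambled DC array 1 or 4 was left out, at 0.15 to 0.19.

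Ndufa4l2, a paralog of Ndufa4 known as a target of hypoxia-inducible factors, read 7.73, 7.50, 7.60 and 7.28 on the DC arrays labelled Hes3 siRNA and 7.02, 7.40, 7.20 and 7.11 on the scrambled DC arrays. Array 7 labelled Hes3 siRNA lay below scrambled array 2, so the groups overlap. The difference was 0.35 ± 0.09 in DC (1.27-fold, adjusted p = 0.00943), and 0.01 ± 0.11 between DC and CC with scrambled siRNA (adjusted p = 0.978).

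Cox6a2, the heart and muscle isoform of subunit 6a, was the one riser among the brightest 25% of genes, with 9.71, 9.63, 9.61 and 9.67 on the arrays labelled Hes3 siRNA and 9.35, 9.37, 9.40 and 9.35 on the scrambled arrays. The groups were narrow (SD 0.04 and 0.02, n = 4 each) and apart, and the difference was 0.29 ± 0.06 (adjusted p = 0.00364). Between conditions under the Hes3 siRNA label its difference was -0.02 ± 0.07. The testis isoforms Cox8c (0.36 ± 0.08, adjusted p = 0.00407) and Cox6b2 (0.36 ± 0.11, adjusted p = 0.0185) rose in DC, while Cox8b, Cox7b2 and Cox7a1 had 0.22, 0.12 and -0.01 and did not pass. Cox8c (0.34 ± 0.09) and Ndufa4l2 (0.30 ± 0.11) also rose between DC and CC under the Hes3 siRNA label. The calls of Cox4i2, Cox8c and Ndufa4l2 in that comparison were all lost under quantile normalization, centring and loess (0.11 to 0.24, adjusted p = 0.055 to 0.39), without either CC array labelled Hes3 siRNA, and without DC arrays 1 and 5. The call of Ndufa4l2 was also lost without DC array 1, 2 or 5 of the Hes3 siRNA label, and without scrambled DC array 3 or 4 (0.23 to 0.31, adjusted p = 0.0554 to 0.103). The risers other than Cox6a2 lie between the 25th and 50th percentiles of signal, where the median difference of all genes in DC was 0.21, and the part of signal level in these rises was not tested.

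Complex V, the ATP synthase, joins a catalytic F1 head to a membrane rotor by a central and a peripheral stalk. Its largest fall was in Atp5md, a small membrane subunit linked to dimers of the enzyme, with 11.41, 11.79, 11.47 and 11.67 on the DC arrays labelled Hes3 siRNA and 12.28, 12.06, 12.03 and 12.24 on the scrambled DC arrays. CC arrays read 12.14 and 12.52 with the Hes3 siRNA label and 11.76 and 12.44 with scrambled siRNA. The DC groups do not overlap, but scrambled CC array 1 read below DC array 2 labelled Hes3 siRNA. The difference was -0.57 ± 0.13 in DC (1.48-fold, adjusted p = 0.00542) and -0.75 ± 0.16 between conditions under the Hes3 siRNA label (adjusted p = 0.0027), and all 3 probe sets had the same direction in both.

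In the peripheral stalk Atp5pb (subunit b) and Atp5h (subunit d) fell in DC by 0.36 (SE 0.12, adjusted p = 0.0263) and 0.29 (SE 0.10, adjusted p = 0.028). A second probe set of Atp5pb differed by -0.04 in DC and did not pass. Atp5o, the cap of the stalk, had 0.13 ± 0.09 in DC and did not pass. In the F1 head the catalytic beta subunit Atp5b and the central stalk subunit Atp5d fell in DC by 0.17 (SE 0.07, adjusted p = 0.046) and 0.19 (SE 0.07, adjusted p = 0.0438). Between DC and CC under the Hes3 siRNA label 4 of 5 F1 members fell, Atp5d the furthest (-0.50 ± 0.09), and the alpha subunit Atp5a1 (-0.25 ± 0.10) did not pass. Atp5l, subunit g, fell in DC (-0.26 ± 0.10, adjusted p = 0.0439), with 6 probe sets between -0.19 and -0.41.

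The c ring, whose rotation couples protons to ATP, is encoded by 3 genes whose mature proteins are the same and whose import sequences differ. None passed in DC, where Atp5g1, Atp5g2 and Atp5g3 had -0.13 ± 0.07, -0.06 ± 0.06 and -0.06 ± 0.09. Atp5g1 read 12.06 and 12.33 on the CC arrays labelled Hes3 siRNA and 11.85, 11.80, 11.80 and 11.74 on the DC arrays, and the groups are apart. It fell by 0.40 (SE 0.09, adjusted p = 0.00382), while Atp5g2 had -0.04 (95% confidence interval -0.20 to 0.12) and Atp5g3 -0.19 (-0.42 to 0.05). Whether the 3 genes differ from one another was not tested.

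Signal level and array were followed through these results. Over the members, the median deviation from the 12-array mean was -0.06, -0.04, -0.16 and -0.12 on the DC arrays labelled Hes3 siRNA (1, 2, 5 and 7). It was -0.01, -0.03, 0.04 and 0.03 on the scrambled DC arrays. In CC it was 0.07 and 0.22 with the Hes3 siRNA label and -0.08 and 0.17 with scrambled siRNA, so CC array 2 of each label was the highest. The brightest 25% of all genes had -0.16, -0.06, -0.13 and -0.07 on the 4 DC arrays labelled Hes3 siRNA: its lowest arrays were 1 and 5, while those of the members were 5 and 7. Complex III and complex V were lowest on arrays 5 and 7 too, at -0.27 and -0.25 for complex III and -0.19 and -0.16 for complex V. The 8 tissue-restricted isoforms were highest on arrays 1 (0.27) and 5 (0.25), with 0.10 on array 2 and 0.00 on array 7.

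**Figure D3:**
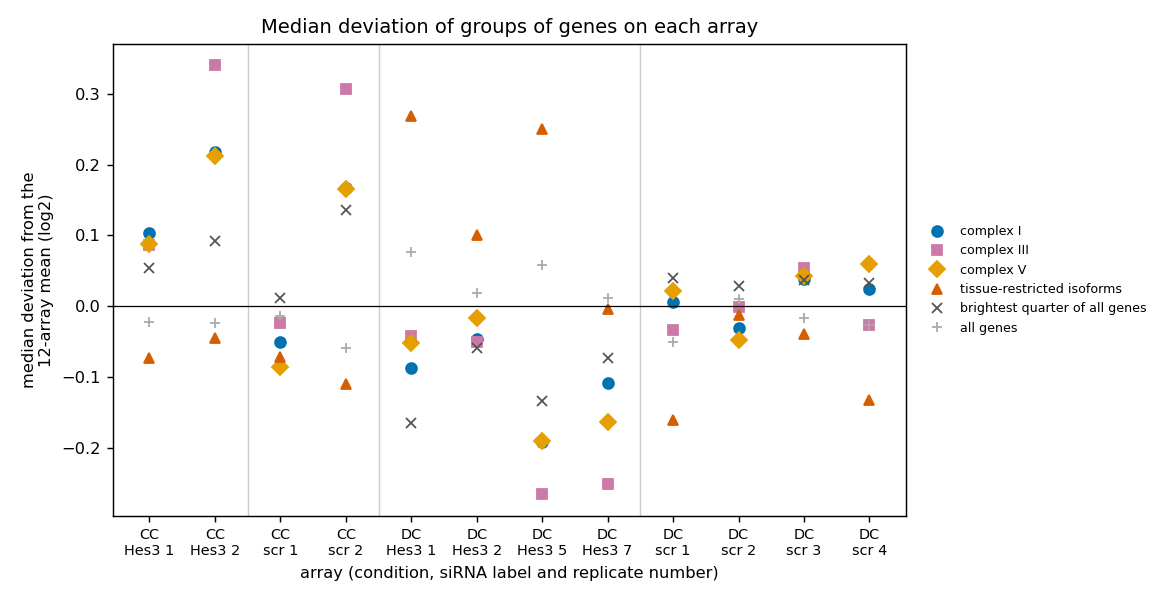
Median deviation from the 12-array mean (log2, vertical axis) on each array (horizontal axis) for complexes I, III and V, the 8 tissue-restricted isoforms, the brightest 25% of genes and all genes. Complex III reaches -0.27 and -0.25 on DC arrays 5 and 7 labelled Hes3 siRNA, and the isoforms reach 0.27 and 0.25 on arrays 1 and 5.

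Markers of other cell types moved as well. In DC under the Hes3 siRNA label 5 of 7 fibroblast, 4 of 4 acinar, 3 of 5 macrophage, 2 of 4 endothelial and 1 of 2 alpha cell markers measured were higher, and none of them lower. Over all genes 28.9% were higher, and the 2 dimmer of 4 equal signal classes, which hold 15 of these 22 markers, had medians of 0.15 and 0.21. The summed linear signal of the fibroblast list ran from 1939 to 2324 on the arrays labelled Hes3 siRNA and from 1600 to 1735 on the scrambled arrays, and that of the acinar list from 837 to 981 and from 709 to 770. The fibroblast, acinar, macrophage and endothelial markers lie at or below the 72.8th percentile of signal, and the alpha cell marker Gcg at the 99.2th. Their part in the members' differences was not tested. The summed beta cell list ran from 62095 to 67410 and from 68196 to 71003, with 4 of 12 lower and 1 higher. Between DC and CC under the Hes3 siRNA label 2 of 7 fibroblast, 4 of 4 acinar, 1 of 5 macrophage, 2 of 4 endothelial and 1 of 2 alpha cell markers were higher, beside 21.2% of all genes. Gcg (-1.05) and the macrophage marker Cd68 (-0.66) were lower there. Both were also lower with scrambled siRNA (-0.93 and -0.44).

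**Figure D4:**
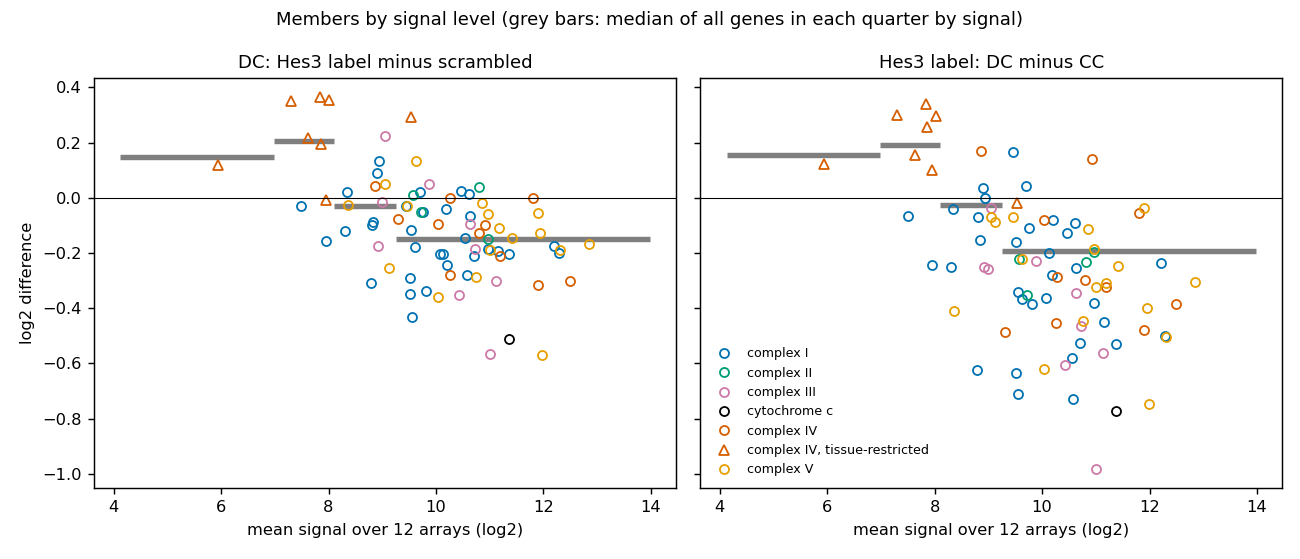
Difference of each member (log2, vertical axis) against its mean signal over 12 arrays (log2, horizontal axis) in DC between siRNA labels and, under the Hes3 siRNA label, between DC and CC; grey bars are medians of all genes in each of 4 equal classes of signal. In DC these medians run from 0.15 and 0.21 in the 2 dimmer classes to -0.15 in the brightest. The 60 members in the brightest class had a median of -0.16 in DC, near that bar. Uqcrb, Atp5md and Cycs lie far below it at -0.51 to -0.57.

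Genes that build and feed the chain were read from 4 lists. Among 45 respiratory chain assembly factors, 12 fell (26.7%) and 3 rose in DC under the Hes3 siRNA label, beside 18.3% of all genes and 40.9% of the brightest 25% that fell. The falls were led by Atpaf1, a chaperone of the F1 head (-0.39 ± 0.08, adjusted p = 0.00408), and Ndufaf1, an assembly factor of complex I (-0.34 ± 0.11, adjusted p = 0.0217). Between DC and CC under that label 19 fell (42.2%) and 1 rose, beside 18.8% of all genes and 44.5% of the brightest 25% that fell. Coa5, a complex IV assembly factor (-0.75 ± 0.09), and Bcs1l, which inserts the Rieske protein into complex III (-0.71 ± 0.12), fell the most, and Lrpprc, which stabilizes mitochondrial mRNAs, rose (0.31 ± 0.07). With scrambled siRNA Lrpprc (0.39 ± 0.07) and Ndufaf3 (0.33 ± 0.07) rose and Coa5 (-0.35 ± 0.09) fell. The list's median in DC was -0.09, beside 0.06 over all genes and -0.15 over the brightest 25%.

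Of 12 tricarboxylic acid cycle genes, 6 fell in DC, beside 18.3% of all genes and 40.9% of the brightest 25%. The list median was -0.16, near the -0.15 of the brightest 25%. They included Dld, the shared lipoamide dehydrogenase (-0.42 ± 0.11), Sucla2 (-0.31 ± 0.10) and Fh1, fumarase (-0.25 ± 0.08). Between conditions 7 fell under the Hes3 siRNA label (58.3%, beside 18.8% of all genes and 44.5% of the brightest 25%), Fh1 the most (-0.73 ± 0.10). With scrambled siRNA 0 passed, with 2 at an unadjusted p under 0.05.

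Of 16 regulators of mitochondrial biogenesis, 7 fell (43.8%) and 1 rose in DC, beside 18.3% of all genes and 40.9% of the brightest 25% that fell. The falls of Tfb1m and Tfb2m were larger than that of any member. Tfb1m, the mitochondrial rRNA methyltransferase, and Tfb2m, a transcription factor of mitochondrial DNA, fell by 0.77 (SE 0.11, 1.71-fold, adjusted p = 0.00168) and 0.66 (SE 0.11, 1.58-fold, adjusted p = 0.00290). Tfam, which packages mitochondrial DNA, fell by 0.40 (SE 0.10), Yy1 by 0.38 (SE 0.10) and Gabpa, an ETS factor that binds promoters of respiratory genes, by 0.37 (SE 0.08). Esrra, a nuclear receptor for the same kind of promoter, rose (0.19 ± 0.06), and Nrf1 and the coactivator Ppargc1a, with 0.10 and -0.21, did not pass. Between conditions 5 fell under the Hes3 siRNA label (31.25%, beside 18.8% of all genes and 44.5% of the brightest 25%), led by Tfb2m (-0.93 ± 0.14). With scrambled siRNA 0 passed, with 6 at an unadjusted p under 0.05.

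Of 13 hypoxia-related genes, 3 rose with scrambled siRNA between 20% and 5% oxygen (23.1%, beside 3.09% of all genes and 6.92% of the brightest class). They were Ldha, lactate dehydrogenase A (1.21 ± 0.23, adjusted p = 0.00285), Pdk1, which holds pyruvate dehydrogenase inactive (0.76 ± 0.14, adjusted p = 0.00219), and Ndrg1 (0.52 ± 0.09, adjusted p = 0.00123). Under the Hes3 siRNA label 6 rose (46.2%, beside 21.2% of all genes and 9.15% of the brightest class), with Ldha at 1.02 ± 0.23 and Pdk1 at 0.82 ± 0.14. Hif1a fell (-0.38 ± 0.12), which is 7.69% of the list beside 18.8% of all genes and 44.5% of the brightest class. In DC between the siRNA labels Hif1a (-0.45 ± 0.10), Bnip3l (-0.31 ± 0.11) and Ndrg1 (-0.21 ± 0.07) fell. These are 23.1% of the list, beside 18.3% of all genes and 40.9% of the brightest class that fell. Higd1a, a small inner membrane protein, rose (0.30 ± 0.08), which is 7.69% of the list beside 28.9% of all genes and 2.39% of the brightest class.

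Promoter letters were read because 2 factors that bind promoters of respiratory genes, Gabpa and Yy1, fell in DC. RefSeq windows of 250 bases before to 50 bases after the gene start (GRCm38.p6) matched 67 of the 83 members. Both strands were searched for exact letters. The nuclear respiratory factor 1 site, whose letters are the capitals in the lines for Atp5g2 to Uqcrc1, was in 5 of 67 members (7.46%) and in 1.07% of all 27025 genes with a window, and its short site GCATGCGC, which lies within it, in 11 members (16.4%, beside 3.05%). The YY1 letters, the capitals in the lines for Atp5j to Ndufs7, were in 5 members (7.46%, beside 0.995%), the cyclic AMP element TGACGTCA in 5 (7.46%, beside 2.03%) and the ETS letters CCGGAAGT in 5 (7.46%, beside 4.31%). The letters TCAAGGTCA of estrogen-related receptors were in 2 members (2.99%, beside 0.466%), and the SP1 letters GGGGCGGGG in 11 (16.4%, beside 12.9%). A match describes letters and is not a site shown to be bound.

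The 5 members with the YY1 letters are shown, since the gene for that factor fell in DC. They are printed on the gene's strand, with the motif in capitals, from chr16:84835045-84835074, chr6:126849096-126849125, chr13:114388045-114388074, chr13:73328433-73328462 and chr10:80249463-80249492 in this order; all but the last are on the minus strand.
Atp5j: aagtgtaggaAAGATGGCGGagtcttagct
Ndufa9: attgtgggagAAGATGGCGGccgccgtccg
Ndufs4: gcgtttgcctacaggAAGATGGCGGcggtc
Ndufs6: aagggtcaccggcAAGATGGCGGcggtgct
Ndufs7: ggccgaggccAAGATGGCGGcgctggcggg

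In Ndufa9, Ndufs4, Ndufs6 and Ndufs7 the letters lie after the gene start, and in Atp5j before it. In DC Ndufa9 and Ndufs4 (-0.21 ± 0.07) fell, Ndufs7 and Atp5j had -0.20 and -0.11 and did not pass, and Ndufs6 had 0.13. Between conditions under the Hes3 siRNA label Ndufs4 (-0.53 ± 0.09), Ndufs7, Ndufa9 and Atp5j (-0.31 ± 0.10) fell, and Ndufs6 had 0.00 ± 0.09.

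The 5 members with the whole nuclear respiratory factor 1 site are shown beside them, as the best known promoter element of this gene family. They lie at chr15:102671070-102671099, chr5:108434430-108434459 and chr5:115349101-115349130 on the minus strand and at chr17:56717692-56717721 and chr9:108936668-108936697 on the plus strand, with the site in capitals.
Atp5g2: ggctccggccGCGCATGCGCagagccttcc
Atp5k: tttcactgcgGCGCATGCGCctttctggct
Cox6a1: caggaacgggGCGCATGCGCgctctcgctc
Ndufa11: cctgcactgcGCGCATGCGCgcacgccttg
Uqcrc1: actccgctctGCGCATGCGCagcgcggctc

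None of these 5 fell in DC, where their differences were -0.06, 0.05, -0.10, 0.02 and -0.09 in the order printed. Between conditions under the Hes3 siRNA label Uqcrc1 fell and the others did not pass. The median over the 5 was -0.07 beside -0.27 over the 62 matched members without the site. The other motifs found in 5 members gave, with and without, -0.38 and -0.25 (YY1), -0.36 and -0.25 (ETS) and -0.25 and -0.27 (cyclic AMP element). A second Ndufa11 probe set (mean signal 10.23 beside 10.46) did fall in that comparison, by limma (-0.44, adjusted p = 0.0117). In DC it had -0.18 and did not pass. The groups of 5 are small, and no test was made between members with and without a motif.

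The members differed in how firmly their calls held. In the DC comparison of the siRNA labels 0 of the 27 called members passed under every alternative setting, and 14 passed without any single one of the 12 arrays: Cycs, Cyc1, Uqcrb, Uqcrc2, Ndufa2, Ndufa9, Ndufb5, Ndufs5, Atp5md, Cox6c, Cox7b, Cox6a2, Cox8c and Ndufa4l2. With both DC arrays 1 and 5 of the Hes3 siRNA label left out, Cycs had -0.43 (adjusted p = 0.0783), Uqcrb -0.44 (adjusted p = 0.0765) and Cox6a2 0.29 (adjusted p = 0.0512). Between DC and CC under the Hes3 siRNA label 12 of 46 passed under each of the 21 alternative settings: Cycs, Cyc1, Uqcrb, Uqcrc2, Ndufa2, Ndufb5, Ndufc2, Ndufs4, Ndufs5, Ndufs7, Ndufs8 and Atp5d. Of the 17 members with several probe sets, all sets had 1 sign in 14 in DC and in 15 in the latter comparison. The second Cox6c probe set passed in neither comparison, and the second Ndufa11 probe set fell in the latter only.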

How the data were processed

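RNA of MIN6 cells was measured on 12 Affymetrix arrays. The values deposited by the authors, 1 for each of 35556 probe sets on each array, were taken as log2 from their range (3.94 to 14.4). The authors' summarization and normalization are not given in the sources used here. Precision is limited by how many arrays each group has. The platform annotation gave 21789 probe sets a single symbol, 1621 several and 12146 none. Probe sets with several symbols were not used, which left out 6 that name a member.

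Differences, as log2 values with SE or 95% confidence interval, came from limma 3.58.1 in R 4.3.3 (lmFit, eBayes; 1 mean per group, all 12 arrays, 8 residual degrees of freedom), with 5 contrasts, two-sided p-values adjusted by Benjamini-Hochberg over 19938 genes, threshold 0.05 and no minimum fold. The method was tested on simulated data. The members and lists were chosen with earlier results of these data known. Within each comparison and complex the text names up to 4 called members with the largest difference in each direction, or the smallest p, and always complex II, cytochromes and isoform families; Ndufs8, Ndufs1 and a few others were added after their values were seen. Alternatives were other normalizations, a filter under the 40th percentile, trended eBayes, only the arrays compared, probe set means, a replicate block and arrays left out.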

Additional observations from a re-analysis of the deposited data

Results flagged for a closer look

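In 166 groups of 4 arrays (83 members in both DC groups), 6 single values stood apart from the other 3, or 3.61%; chance alone sets apart about 1 in 20 such groups. DC array 5 labelled Hes3 siRNA read low in Ndufv1 (9.90, the next lowest 10.02) and in Cox7a2 (9.83, the next lowest 10.08), both members that fell in DC. The other 4 values were on scrambled DC arrays: Ndufa3 on array 2 (10.5, the next 10.6), Ndufa13 on array 3 (9.58, the next 9.50), Cox5a on array 3 (10.3, the next 10.2) and Cox8c on array 4 (7.61, the next 7.75).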

How the results depend on the processing

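Depth is not known for arrays, and precision rests on 2 or 4 arrays a group. Members passing the test in DC between siRNA labels numbered 27, and 13 after cyclic loess. For the same comparison the lists gave 8 assembly factors and 3 tricarboxylic acid cycle genes after quantile normalization (15 and 6 as deposited), and 2 tricarboxylic acid cycle and 2 hypoxia genes after loess (6 and 4). With DC arrays 1 and 5 of the Hes3 siRNA label both left out, 0 members, 0 assembly factors, 0 tricarboxylic acid cycle, 1 biogenesis and 0 hypoxia genes passed. Between DC and CC under the Hes3 siRNA label, 46 members became 25 after quantile normalization, 27 after loess and 22 without those arrays. There the tricarboxylic acid cycle genes fell from 7 to 3, 3 and 2, the hypoxia genes from 7 to 4 in each and after centring, and the assembly factors from 20 to 13 without the arrays. With scrambled siRNA, 0 members passed after centring (1 as deposited). The assembly factors there went from 3 to 5 after loess and 6 without the arrays, the tricarboxylic acid cycle genes from 0 to 2 after loess, and the biogenesis genes from 0 to 1 after loess, 2 with dim genes left out, 2 with only the arrays compared, 1 with probe set means and 1 without the arrays. The cause of these shifts was not tested.

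Deviations of same-numbered arrays of both siRNA labels correlated at 0.25 in CC and at -0.37 and -0.33 in DC, where 2 numbers are shared. With 2 arrays a group in CC and 2 shared numbers in DC, these values cannot settle whether same-numbered arrays were paired. With the replicate block, 0 members, 0 assembly factors, 0 tricarboxylic acid cycle, 3 biogenesis and 0 hypoxia genes passed in DC. With the block 22 members, 11 assembly factors, 2 tricarboxylic acid cycle and 4 hypoxia genes passed between DC and CC under the Hes3 siRNA label, and 0 members, 1 assembly factor and 1 biogenesis gene with scrambled siRNA.

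Leaving out 1 array at a time gave 16 to 35 members in DC between siRNA labels, 12 to 48 between DC and CC under the Hes3 siRNA label, 0 to 9 with scrambled siRNA, and 0 to 24 for the difference of the siRNA contrasts. In the same order of the first 3 comparisons, assembly factors ran from 3 to 18, 9 to 23 and 2 to 9, tricarboxylic acid cycle genes from 1 to 7, 1 to 7 and 0 to 1, biogenesis genes from 6 to 9, 3 to 6 and 0 to 3, and hypoxia genes from 2 to 5, 2 to 7 and 3 to 4. In CC, 0 members passed the limma test under every alternative run. No called member turned sign under the alternatives run.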
